A study of Mus musculus with 9 samples.

Results

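The 10 genes described here write, erase or read the methyl groups on lysine 36 of histone H3 (H3K36), and their messenger RNA was followed in blood stem and progenitor cells of mice that make a mutant histone H3.3. They were chosen by symbol from the 37882 genes of the deposited expression table: Setd2, Nsd1, Whsc1, Whsc1l1, Ash1l and Setmar among the methyltransferases, Kdm2a and Kdm2b among the demethylases, and Psip1 and Morf4l1 among the readers. K36M mice carried rtTA in Rosa26 together with H3K36M in Col1a1, in which methionine replaces lysine 36. K9M mice carried rtTA in Rosa26 together with H3K9M in Col1a1, in which methionine replaces lysine 9. The control mice, called rtTA, carried rtTA in Rosa26 alone. rtTA is a transcription activator that works in the presence of doxycycline, and mice of all 3 groups drank water with 2 mg/ml doxycycline and 10 mg/ml sucrose. All mice had a B6/129 background and were 6 to 8 weeks old. Each group had 3 mice and each mouse gave 1 library. A group with an unmutated H3.3 transgene was not among them, so an effect of the mutation and an effect of extra H3.3 cannot be told apart in a comparison with rtTA. The sorted cells were LSK cells, marrow cells that lack Mac1, Gr1, B220, CD3e and Ter119 and carry Sca1 and cKit.

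H3K36 can carry up to a trimethyl group. Setd2 travels with elongating RNA polymerase II and trimethylates the lysine within transcribed genes. Nsd1, Whsc1 (also named Nsd2) and Whsc1l1 (also named Nsd3) form the NSD family, which adds the lower methyl states, and Ash1l, a Trithorax-group protein, does so at selected genes. Kdm2a and Kdm2b remove the lower methyl states and bind unmethylated CpG DNA, and Kdm2b also brings a variant Polycomb complex to CpG islands. Psip1 (also known as LEDGF) reads H3K36 methylation through its PWWP domain, and Morf4l1 (also known as MRG15) reads it through a chromodomain. A lysine-to-methionine H3 tail is known to inhibit the enzymes that act on the replaced lysine.

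The lysines that are replaced lie near the start of the protein, and the coding sequence shows where. The first 117 of 411 coding bases of H3f3a, a mouse gene for H3.3, are given 5′ to 3′ from GENCODE M21 (mm10, chromosome 1, 180800832 to 180813943, minus strand). The capitals mark the codons of lysine 9 (AAA) and lysine 36 (AAG), counted after the first methionine. This is the endogenous gene, and the sequence of the transgenes was not used here.
H3f3a coding start: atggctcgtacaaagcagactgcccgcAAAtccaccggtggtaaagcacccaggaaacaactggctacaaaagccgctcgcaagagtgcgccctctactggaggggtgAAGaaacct

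Expression was deposited as RPKM, a read count scaled to the length of the transcript and the size of the library, and each value below is RPKM unless another scale is named. Depth estimated from the steps between low values ran between about 15860000 and 50310000 reads per library. H3f3a stood at 409 to 490 RPKM in K36M, 284 to 319 RPKM in K9M and 192 to 256 RPKM in rtTA, without overlap between the groups, and transgene reads and near-identical copies may have been counted with it. Kit, which encodes the cKit marker of the sort, stood at 53.3 to 74.2 RPKM in K36M, 81.1 to 92.0 RPKM in K9M and 88.1 to 102 RPKM in rtTA. The T cell gene Cd3e was at most 0.17 RPKM and was listed at 0 in 2 K9M libraries. The rtTA replicate 3 library stood apart in neutrophil RNA, with Ly6g at 42.1 RPKM against 0.95 to 6.31 RPKM in the other 8 libraries. In bulk RNA, fewer cells of a type and less RNA per cell cannot be told apart.

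All 10 genes were expressed, and all 10 passed the filter of at least 1 RPKM in at least 3 libraries. Over the 9 libraries the readers stood highest: Morf4l1 averaged 275 RPKM and Psip1 39.7 RPKM. Nsd1 (13.2 RPKM), Setd2 (12.95 RPKM) and Whsc1 (12.5 RPKM) came next. Kdm2a (9.96 RPKM) and Kdm2b (7.82 RPKM) followed, then Ash1l (6.33 RPKM) and Whsc1l1 (5.87 RPKM), and Setmar was lowest at 3.47 RPKM. Each gene was compared with the next one down within libraries, by a two-sided exact sign-flip test of the log2 ratio over 9 libraries, whose smallest possible p is 0.0039. In 6 of the 9 neighbouring pairs the first gene was higher in 9 of 9 libraries (exact p = 0.0039, adjusted p = 0.0059 over the 9 pairs). The pairs and their direction came from the means of these same 9 libraries, with all groups pooled. The p-values therefore describe the order and are no independent support for it. Nsd1 exceeded Setd2 in 6 of 9 libraries (exact p = 0.594), Setd2 exceeded Whsc1 in 6 of 9 (exact p = 0.652), and Ash1l exceeded Whsc1l1 in 7 of 9 (exact p = 0.0859), so these neighbours did not separate beyond their spread. The order within that leading trio of methyltransferases differed between groups: Nsd1, Setd2, Whsc1 in K36M, Whsc1, Nsd1, Setd2 in K9M, and Setd2, Nsd1, Whsc1 in rtTA.

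**Figure D1:**
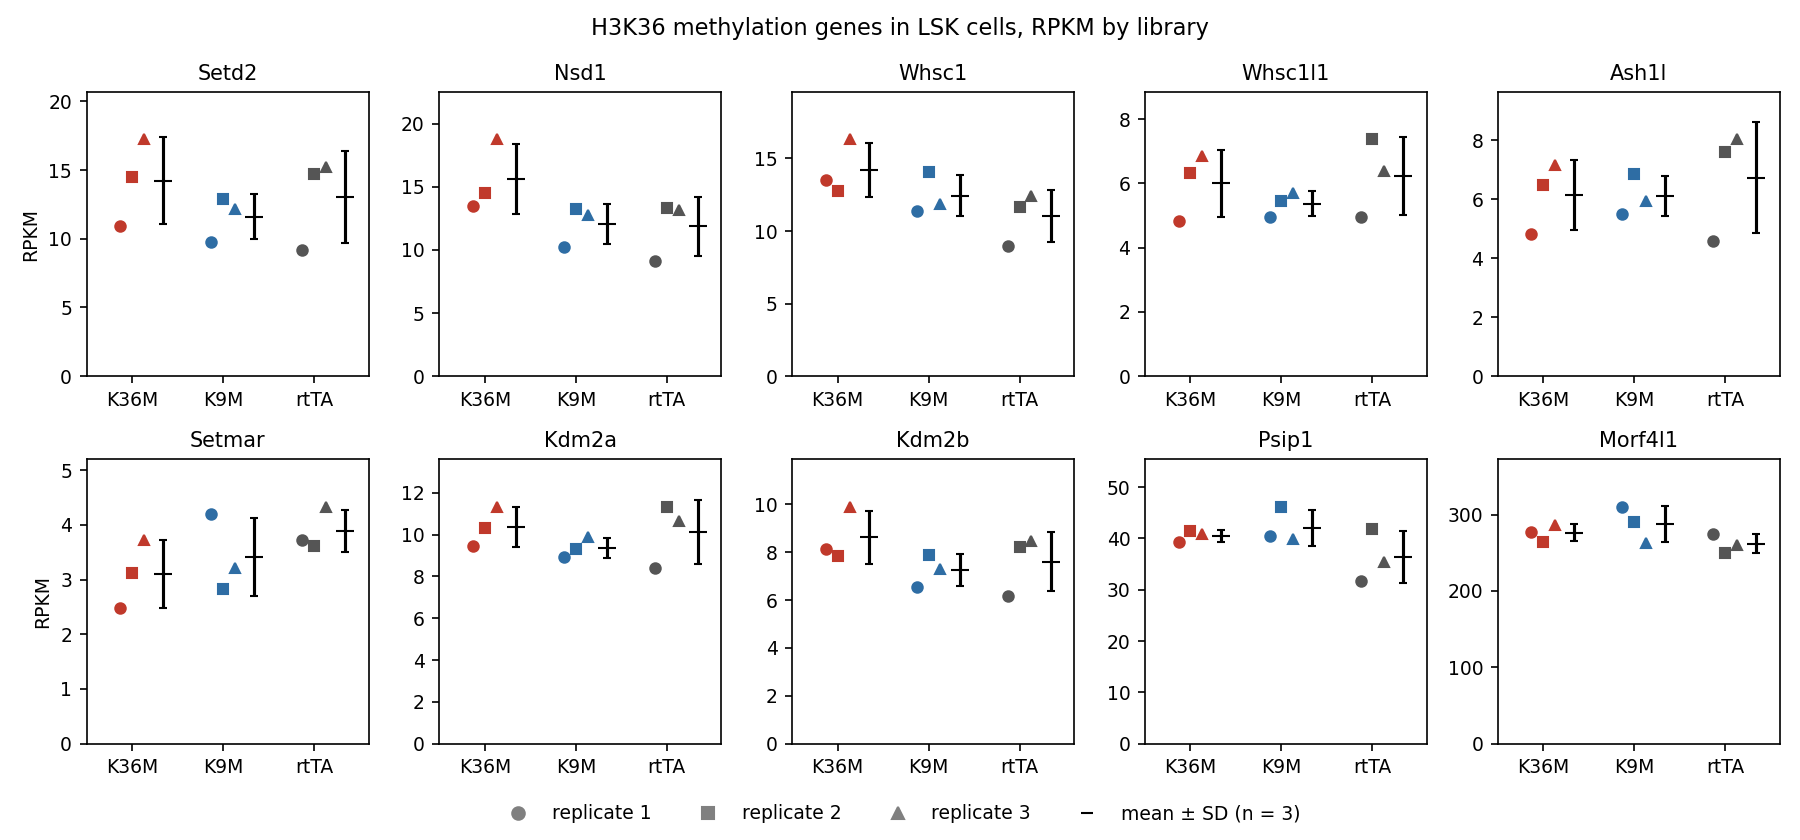
RPKM of the 10 genes in each of the 9 libraries, with 1 panel per gene, K36M, K9M and rtTA from left to right, symbols for the replicates and the group mean ± SD (n = 3). Nsd1 and Whsc1 are higher in all K36M libraries than in any rtTA library, and in most panels of long genes replicate 1 is the lowest of its group.

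Differences between groups were tested with limma on log2(RPKM + 0.5), fitted to all 12926 genes that passed the filter, and called means a p below 0.05 after Benjamini-Hochberg adjustment. None of the 10 genes was called in any of the 3 comparisons. In K36M against rtTA, 1 of the 10 had an unadjusted p under 0.05 (19.1% of all genes did), and 194 genes in all were called, or 1.50%. With the replicate number as a block, 301 genes and again none of the 10 were called. Nsd1 and Whsc1 then had an unadjusted limma p under 0.05, and the share of all genes under it was not counted with the block. The number of genes called depended on single libraries and ran between 10 and 402 when each was left out in turn. Against rtTA, K9M gave no member of the set an unadjusted p under 0.05 (7.11% of all genes had one), and 15 genes in all were called, or 0.116%. In K36M against K9M the set again had no unadjusted p under 0.05 (18.8% of all genes did), while 326 genes in all were called, or 2.52%.

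Of the NSD family, Nsd1 and Whsc1 had K36M libraries that did not overlap with rtTA, as 22.3% of all genes tested did in one direction or the other, and neither was called. Nsd1 (ENSMUSG00000021488, chromosome 13, 55209782 to 55318325) had 13.5, 14.6 and 18.8 RPKM in K36M, 10.3, 13.2 and 12.8 RPKM in K9M, and 9.14, 13.3 and 13.1 RPKM in rtTA. Every K36M library was above every K9M and rtTA library, the lowest K36M library by a narrow margin, while K9M and rtTA overlapped. Nsd1 averaged 15.6 ± 2.79 RPKM in K36M, 12.1 ± 1.59 RPKM in K9M and 11.9 ± 2.36 RPKM in rtTA (SD, n = 3 each). Its log2 fold change was 0.39 (SE 0.18, 95% interval -0.02 to 0.79, limma adjusted p = 0.287) in K36M against rtTA and 0.35 (SE 0.18, limma adjusted p = 0.346) in K36M against K9M. The K9M value against rtTA was 0.04 (SE 0.18, limma adjusted p = 0.981). With the replicate number as a block, Nsd1 in K36M against rtTA had an unadjusted limma p of 0.00962 and a limma adjusted p of 0.0979.

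Whsc1 (ENSMUSG00000057406, chromosome 5, 33820725 to 33897975) had 13.5, 12.8 and 16.3 RPKM in K36M, 11.4, 14.0 and 11.9 RPKM in K9M, and 8.98, 11.7 and 12.4 RPKM in rtTA. The 3 K36M libraries were again above the 3 rtTA libraries, and the K9M libraries overlapped with both. Whsc1 averaged 14.2 ± 1.87 RPKM in K36M, 12.4 ± 1.42 RPKM in K9M and 11.0 ± 1.79 RPKM in rtTA (SD, n = 3 each). Its log2 fold change in K36M against rtTA was 0.36 (SE 0.15, 95% interval 0.02 to 0.70), with an unadjusted p of 0.0408 that did not hold after adjustment (limma adjusted p = 0.242). Between K9M and rtTA it was 0.17 (SE 0.15, limma adjusted p = 0.844), and in K36M against K9M 0.18 (SE 0.15, limma adjusted p = 0.567). With the replicate number as a block, Whsc1 in K36M against rtTA had an unadjusted limma p of 0.0266 and a limma adjusted p of 0.150. In K36M against rtTA, 2 of the 10 genes had groups that did not overlap, both higher in K36M, and over all genes tested 11.6% were higher and 10.6% lower without overlap, so the members' share is near the background. The opposite strand at Whsc1 holds Nelfa, which reached 12.1 RPKM, and since the sources used here do not say whether counting used strand, reads in the overlap cannot be told apart.

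Whsc1l1 (ENSMUSG00000054823, chromosome 8, 25601601 to 25719667), the remaining NSD gene, had 4.84, 6.32 and 6.85 RPKM in K36M, 4.95, 5.46 and 5.70 RPKM in K9M, and 4.95, 7.37 and 6.40 RPKM in rtTA. The groups overlapped, and the lowest library of each group was its replicate 1. Its log2 fold change was -0.05 (95% interval -0.43 to 0.34) in K36M against rtTA and -0.18 (95% interval -0.57 to 0.20) in K9M against rtTA. Setd2 (ENSMUSG00000044791, chromosome 9, 110532597 to 110618633), the trimethylating enzyme, had 10.9, 14.5 and 17.2 RPKM in K36M, 9.74, 12.9 and 12.2 RPKM in K9M, and 9.15, 14.7 and 15.2 RPKM in rtTA. Its spread within a group was as wide as any difference between groups, with replicate 1 lowest in each. The log2 fold change of Setd2 was 0.13 (95% interval -0.37 to 0.64, limma adjusted p = 0.795) in K36M against rtTA and -0.14 (95% interval -0.64 to 0.37, limma adjusted p = 0.92) in K9M against rtTA. Both intervals of Setd2 include 0 and reach far to either side of it.

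Ash1l (ENSMUSG00000028053, chromosome 3, 88950622 to 89079375) had 4.81, 6.48 and 7.15 RPKM in K36M, 5.51, 6.86 and 5.95 RPKM in K9M, and 4.59, 7.60 and 8.04 RPKM in rtTA. The rtTA group held both the lowest and the highest of the 9 libraries. Dap3 lies on the opposite strand within the span of Ash1l and reached 17.4 RPKM, so the same limit on strand applies. Setmar (ENSMUSG00000034639, chromosome 6, 108065045 to 108077122) encodes a SET-domain protein whose human form is fused to a transposase. It had 2.48, 3.11 and 3.72 RPKM in K36M, 4.20, 2.83 and 3.21 RPKM in K9M, and 3.73, 3.61 and 4.33 RPKM in rtTA. Only 1 K36M library, replicate 3, reached into the rtTA range, and its K9M libraries spanned most of the range. The log2 fold change of Setmar in K36M against rtTA, -0.29 (SE 0.18, 95% interval -0.70 to 0.11, limma adjusted p = 0.417), was the lowest of the 10. Setmar is short and rests on the fewest reads, about 90 in the library with fewest, whereas the other 9 genes had over 1000 reads in each library.

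Of the demethylases, Kdm2a (ENSMUSG00000054611, chromosome 19, 4314419 to 4398285) had 9.43, 10.3 and 11.3 RPKM in K36M, 8.93, 9.30 and 9.88 RPKM in K9M, and 8.42, 11.3 and 10.7 RPKM in rtTA. All K36M and K9M values lay within the range of the rtTA libraries. Its intervals were the narrowest among the long genes, -0.25 to 0.33 (log2) in K36M against rtTA and -0.39 to 0.19 (log2) in K9M against rtTA. Kdm2b (ENSMUSG00000029475, chromosome 5, 122870665 to 122989823) had 8.14, 7.82 and 9.89 RPKM in K36M, 6.55, 7.89 and 7.29 RPKM in K9M, and 6.17, 8.20 and 8.45 RPKM in rtTA. The highest library was K36M replicate 3 and the lowest rtTA replicate 1, and the groups overlapped. Its log2 fold change was 0.17 (SE 0.15, limma adjusted p = 0.574) in K36M against rtTA and 0.23 (SE 0.15, limma adjusted p = 0.45) in K36M against K9M. The longest Kdm2b transcript shares 627 bases with Rnf34 on the other strand, which reached 27.6 RPKM, and 615 bases with the processed pseudogene Gm12397, which reached 10.6 RPKM, so the Kdm2b level is uncertain.

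The readers had the smallest standard errors of the 10 genes. Psip1 (ENSMUSG00000028484, chromosome 4, 83455680 to 83486459) had 39.3, 41.4 and 40.9 RPKM in K36M, 40.4, 46.2 and 39.8 RPKM in K9M, and 31.8, 41.8 and 35.4 RPKM in rtTA. Only rtTA replicate 2 reached the level of the mutant libraries. The log2 fold change of Psip1 was 0.16 (SE 0.12, limma adjusted p = 0.483) in K36M against rtTA and 0.22 (SE 0.12, limma adjusted p = 0.747) in K9M against rtTA, the smallest adjusted p of the 10 in the K9M comparison. Morf4l1 (ENSMUSG00000062270, chromosome 9, 90091665 to 90114774) had 277, 265 and 287 RPKM in K36M, 310.1, 290.1 and 263 RPKM in K9M, and 275, 249.7 and 261 RPKM in rtTA. The groups overlapped, and the 95% intervals were -0.16 to 0.31 (log2) in K36M against rtTA and -0.10 to 0.37 (log2) in K9M against rtTA. GENCODE M21 holds 8 processed pseudogenes that match the Morf4l1 transcript at 91.0% to 99.7% identity, and how reads were shared among them is not given in the sources used here.

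Over the 10 genes the median log2 fold change was 0.10 in K36M against rtTA, against 0.02 over all genes, with 7 values above 0 and 3 below. In K9M against rtTA it was -0.08 against 0.01, with 4 above 0 and 6 below, and none of the 10 had groups that did not overlap (12.5% of all genes did). In K36M against K9M it was 0.14 against 0.01, with 6 above 0 and 4 below, and 1 gene, Nsd1, had groups that did not overlap (27.9% of all genes did). The 3 comparisons share libraries and are not independent. The 95% intervals of the 10 genes reached at most from -0.70 to 0.79 (log2) in K36M against rtTA, from -0.64 to 0.51 in K9M against rtTA and from -0.53 to 0.77 in K36M against K9M.

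**Figure D2:**
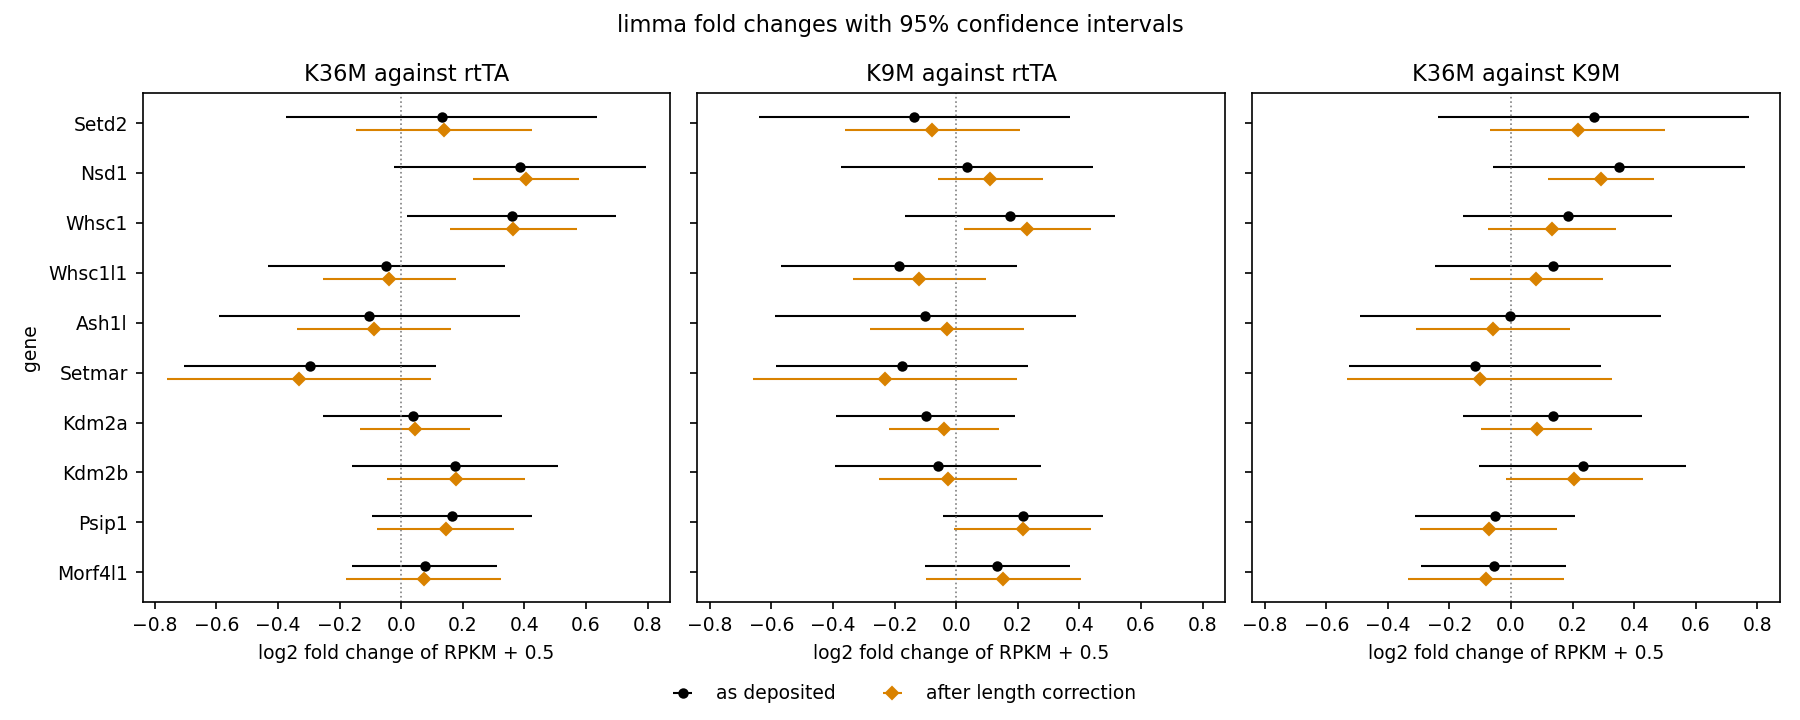
log2 fold change of RPKM + 0.5 for each gene in the 3 comparisons, with 95% intervals from limma, as deposited (black circles) and after a correction for transcript length (orange diamonds). In K36M against rtTA as deposited the interval of Whsc1 lies above 0 and those of the other 9 genes cross 0, and after the correction those of Nsd1 and Whsc1 both lie above 0.

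Libraries of the same group also differed by the length of the transcripts, and the share of the spread that went with length was not computed. For each library, the median log2 deviation from the mean of all libraries was taken over genes with a longest transcript above 8000 bases (561 genes), and the same median over genes of up to 1000 bases (1899 genes) was subtracted from it, with the 10 genes left out. This difference fell into 3 sets of 3 libraries. It was -0.33 in K36M replicate 1, -0.34 in K9M replicate 1 and -0.42 in rtTA replicate 1. It was 0.02 in K36M replicate 2, -0.02 in K9M replicate 2 and -0.04 in K9M replicate 3. In K36M replicate 3 it was 0.38, against 0.35 in rtTA replicate 2 and 0.34 in rtTA replicate 3. No K9M library was in the highest set and no rtTA library in the middle one, so transcript length and group are partly entangled.

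**Figure D3:**
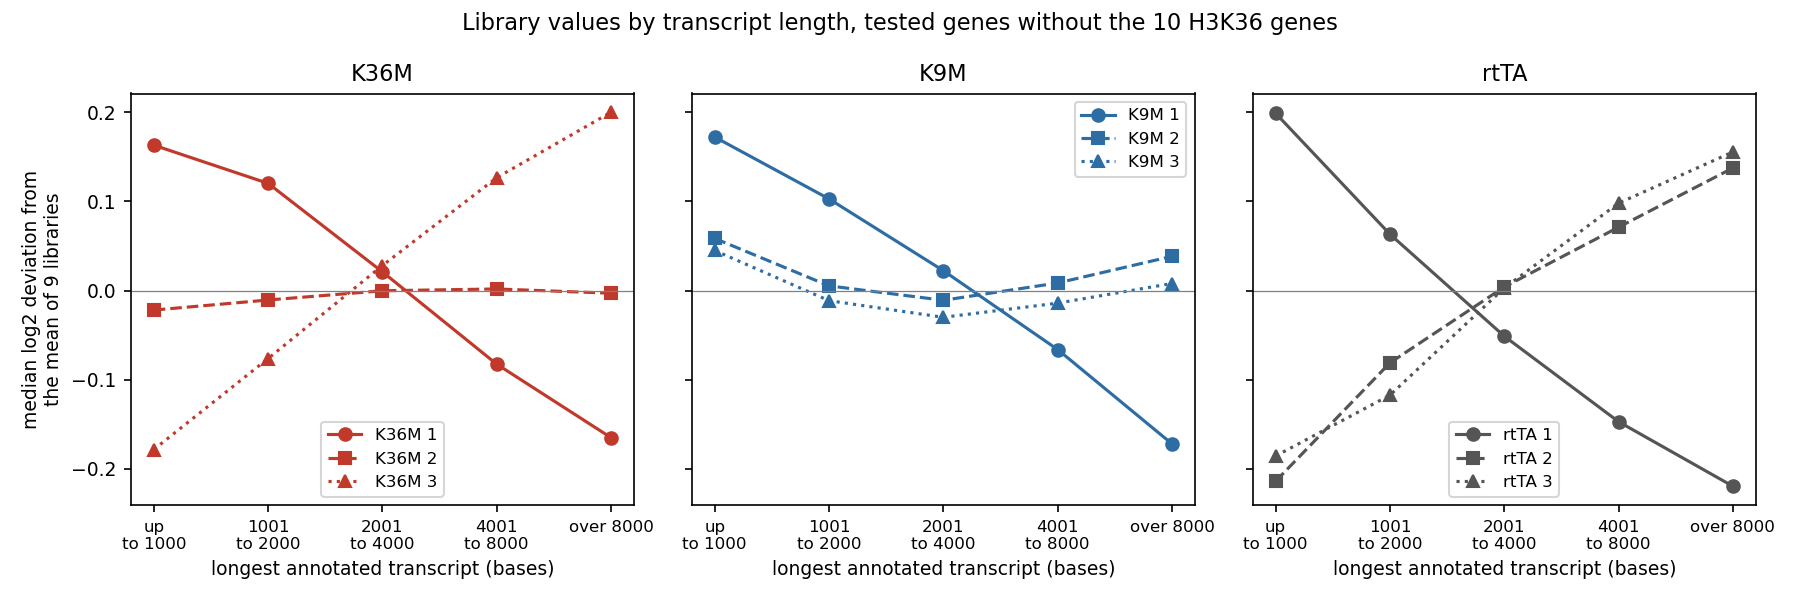
Median log2 deviation of each library from the mean of all 9 libraries, by class of longest transcript in bases, for all tested genes without the 10 H3K36 genes. The replicate 1 libraries of all groups slope downwards with length, and K36M replicate 3, rtTA replicate 2 and rtTA replicate 3 slope upwards.

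Of the 7 H3K36 genes with a transcript over 5000 bases, 5 were lower in every library of the lowest set than in any of the highest, as were 37.9% of the 2384 other tested genes of that length. Setd2 (longest transcript 8350 bases) ran from 9.15 to 10.9 RPKM in the lowest set, 12.2 to 14.5 RPKM in the middle set and 14.7 to 17.2 RPKM in the highest set. Whsc1l1 (10105 bases) ran from 4.84 to 4.95, from 5.46 to 6.32 and from 6.40 to 7.37 RPKM in the lowest, middle and highest sets. Ash1l (11644 bases) ran from 4.59 to 5.51, from 5.95 to 6.86 and from 7.15 to 8.04 RPKM. In these 3 genes no set overlapped with the next, which held for 6.54% of the other genes of that length. The sets were themselves defined by the levels of long genes, so these orders are a description. For Kdm2a (8578 bases) and Kdm2b (5180 bases) the lowest set lay below the highest set, 8.42 to 9.43 against 10.7 to 11.3 RPKM and 6.17 to 8.14 against 8.20 to 9.89 RPKM. Setmar (1748 bases), Psip1 (3251 bases) and Morf4l1 (4640 bases), the shortest of the 10, did not follow the sets. Nsd1 (12784 bases) and Whsc1 (7786 bases) are long but their lowest and highest sets overlapped. In the lowest and the highest set the K36M library stood above the others for both genes, as it also did for Setd2 and Kdm2b. In the middle set it did so for Nsd1 but not for Whsc1, which had 12.8 RPKM in K36M replicate 2 and 14.0 RPKM in K9M replicate 2.

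**Figure D4:**
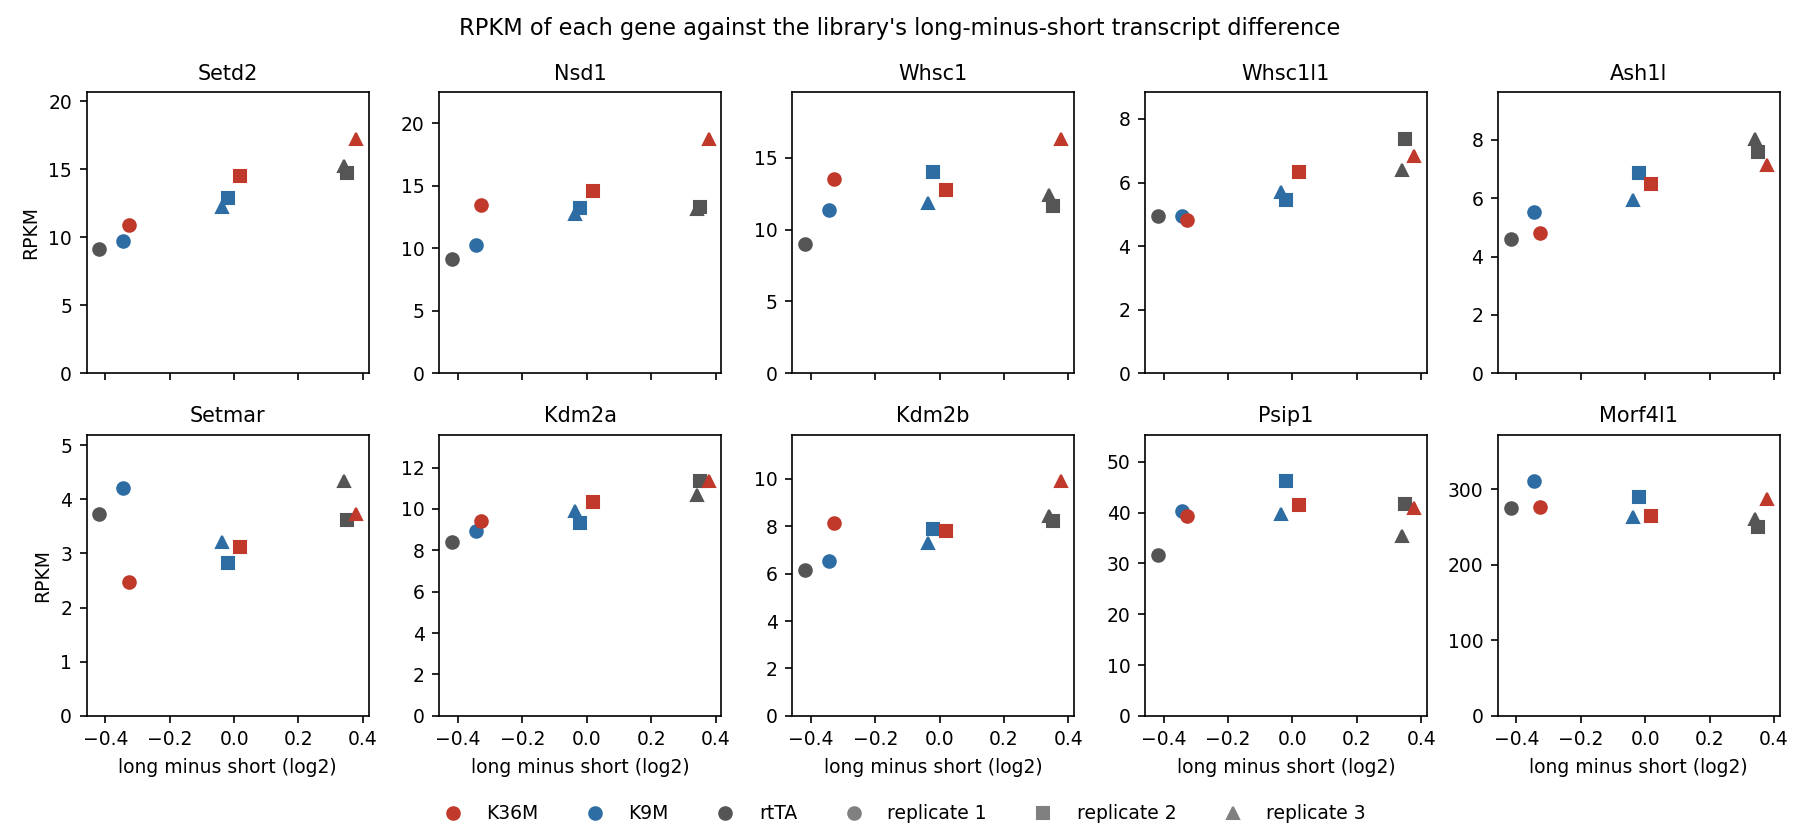
RPKM of each gene against the difference between long and short transcripts (log2) of the same library, coloured by group, with symbols for the replicates. For Setd2, Whsc1l1 and Ash1l the lowest, middle and highest sets follow each other without overlap. In Nsd1 and Whsc1 the K36M points of the lowest and highest sets lie above the rtTA points of the same set. The same holds in Setd2, Kdm2b and Morf4l1.

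Within a set, libraries can be compared at a closer difference between long and short transcripts, though not at an equal one. In the lowest set it was -0.42 in rtTA, -0.33 in K36M and -0.34 in K9M. Nsd1 in K36M was 1.48 times its level in rtTA in the lowest set and 1.42 times in the highest. Whsc1 was 1.51 times and 1.36 times its rtTA level in the same sets. In the lowest set K9M against rtTA was 1.12 times for Nsd1 and 1.27 times for Whsc1. In the middle set, which has no rtTA library, K36M was 1.12 times the K9M level for Nsd1 and 0.985 times for Whsc1. Of the other genes in K36M against rtTA, Setd2 was 1.19 and 1.15 times, Whsc1l1 0.977 and 0.995 times, and Ash1l 1.05 and 0.915 times. Kdm2a was 1.12 and 1.03 times and Kdm2b 1.32 and 1.19 times the rtTA level. Setmar was 0.665 and 0.938 times, Psip1 1.24 and 1.06 times and Morf4l1 1.01 and 1.12 times. These ratios rest on 1 or 2 libraries a side and carry no test.

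A correction for transcript length was added after the data had been seen. It subtracted from each library a smooth curve of deviation on log2 transcript length, for the 12898 tested genes that had a length. Then limma was fitted again to all 12926 genes, those without a length left as they were. Nsd1 was then called in K36M against rtTA, with a log2 fold change of 0.40 (SE 0.076, 95% interval 0.23 to 0.58, limma adjusted p = 0.0333, and limma adjusted p = 0.0464 with the replicate number as a block). It was the only one of the 10 called in any comparison under that correction. Of all 12926 genes tested, the corrected fit called 408 in K36M against rtTA, or 424 with the block, against 194 as deposited. The Nsd1 call held without K36M replicate 2 (limma adjusted p = 0.0257) and was lost without any of the other 8 libraries, where the limma adjusted p ran from 0.0503 to 0.135 and the log2 fold change from 0.38 to 0.42. Whsc1 kept a log2 fold change of 0.36 (limma adjusted p = 0.0665, and limma adjusted p = 0.0818 with the block), and of the fits without a single library only that without K36M replicate 2 called it (limma adjusted p = 0.0405). Nsd1 in K36M against K9M was 0.29 (limma adjusted p = 0.0631). With the replicate 1 libraries left out of all groups instead, Nsd1 was 0.31 (limma adjusted p = 0.514) and Whsc1 0.26 (limma adjusted p = 0.611) in K36M against rtTA. Over the 22 settings that were applied to all 10 genes, the limma adjusted p of Nsd1 in that comparison ran from 0.0333 to 0.574.

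The K36M libraries also differed from rtTA in markers of other cells. The 8 erythroid genes, all tested, summed to 163 to 276 RPKM in K36M, 92.2 to 117 RPKM in K9M and 50.6 to 98.7 RPKM in rtTA. Of the 8, 2 had an unadjusted p under 0.05 in K36M against rtTA, and 1, the globin gene Hbb-bt, was called (log2 fold change 3.64, limma adjusted p = 0.0267). Hbb-bt had 206, 181 and 101 RPKM in K36M, 40.1, 23.7 and 5.66 RPKM in K9M, and 9.80, 12.4 and 14.4 RPKM in rtTA. Without Hbb-bt the other 7 erythroid genes summed to 61.5 to 94.7 RPKM in K36M, 71.8 to 93.2 RPKM in K9M and 40.8 to 84.3 RPKM in rtTA, and the groups overlapped. The 10 stem and progenitor genes, all tested, summed to 627 to 658 RPKM in K36M, 734 to 866 RPKM in K9M and 692 to 922 RPKM in rtTA. The 10 granulocyte genes, all tested, summed to 863 to 2452 RPKM in K36M, 1092 to 1469 RPKM in K9M and 1255 to 7211 RPKM in rtTA. These granulocyte sums overlapped, but they add genes that differed in opposite directions. Of the 10, 9 had an unadjusted p under 0.05 in K36M against rtTA, 7 of them lower and 2, the early granule genes Elane (log2 fold change 1.74) and Mpo (0.96), higher, and the median log2 fold change of the list was -2.70. The secondary granule gene Ltf was called, at a log2 fold change of -4.01 (limma adjusted p = 0.037), with 6.05, 2.61 and 3.39 RPKM in K36M, 34.1, 15.8 and 19.3 RPKM in K9M, and 42.6, 27.8 and 272 RPKM in rtTA. Without rtTA replicate 3 the log2 fold change of Ltf was -3.02 (limma adjusted p = 0.0444). The calls of both marker genes were lost without some other libraries: Ltf without rtTA replicate 1 or any K36M or K9M library, and Hbb-bt without K36M replicate 1 or 3 or any rtTA library. The stem sum was lower in every K36M library than in every rtTA library, but it too adds genes that differed in opposite directions. Of the 10 stem and progenitor genes, 8 were lower in K36M against rtTA, 4 of them at an unadjusted limma p under 0.05. The 2 that were higher, Slamf1 (log2 fold change 0.45) and Mecom (0.40), were also under 0.05, and none of the list was called. The 8 monocyte genes summed to 233 to 539 RPKM in K36M, 187 to 230.5 RPKM in K9M and 214 to 746 RPKM in rtTA. The 8 B lineage genes summed to 29.5 to 37.0 RPKM in K36M, 18.7 to 24.8 RPKM in K9M and 38.6 to 53.6 RPKM in rtTA, and the 7 T lineage genes to 10.3 to 14.4 RPKM in K36M, 12.7 to 17.9 RPKM in K9M and 9.20 to 12.6 RPKM in rtTA. The B lineage sum was thus lowest in K9M, and in every K36M library it was also below that of every rtTA library. Of the 6 B lineage genes tested, 4 were lower in K36M against rtTA, 3 of them at an unadjusted limma p under 0.05, and 2 were higher. Their median log2 fold change was -0.81 and none was called. The monocyte and T lineage sums of K36M and rtTA overlapped, with 7 of 8 monocyte and 2 of 7 T lineage genes tested. The part of these cells in the Nsd1 and Whsc1 levels was not tested. Without rtTA replicate 3, the library rich in neutrophil RNA, the length-corrected log2 fold change in K36M against rtTA was 0.41 for Nsd1 (limma adjusted p = 0.0934) and 0.39 for Whsc1 (limma adjusted p = 0.135).

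Ratios between related genes within a library leave out what moves both alike. The 4 ratios were chosen after the values had been seen, and over the 12 tests no adjusted p was below 0.3. An exact permutation test of 3 against 3 libraries cannot go below 0.1. Nsd1 over Whsc1l1 was 2.79, 2.30 and 2.74 in K36M, 2.08, 2.42 and 2.24 in K9M, and 1.85, 1.81 and 2.05 in rtTA. All mutant libraries lay above all rtTA libraries. The log2 difference was 0.45 (SE 0.105) in K36M against rtTA and 0.24 (SE 0.085) in K9M against rtTA (two-sided exact permutation p = 0.1 for each). Whsc1 over Whsc1l1 was 2.80, 2.02 and 2.38 in K36M, 2.30, 2.57 and 2.09 in K9M, and 1.82, 1.58 and 1.94 in rtTA. Every mutant library again exceeded every rtTA library, by 0.43 (SE 0.16) on the log2 scale in K36M and 0.38 (SE 0.12) in K9M (two-sided exact permutation p = 0.1 for each). Both ratios divide by Whsc1l1, so they are not independent results. Whsc1l1 itself averaged 6.00 RPKM in K36M, 5.37 RPKM in K9M and 6.24 RPKM in rtTA. How often ratios of other gene pairs do not overlap was not counted. The ratios Nsd1 over Whsc1 and Kdm2b over Kdm2a overlapped in all 3 comparisons.

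**Figure D5:**
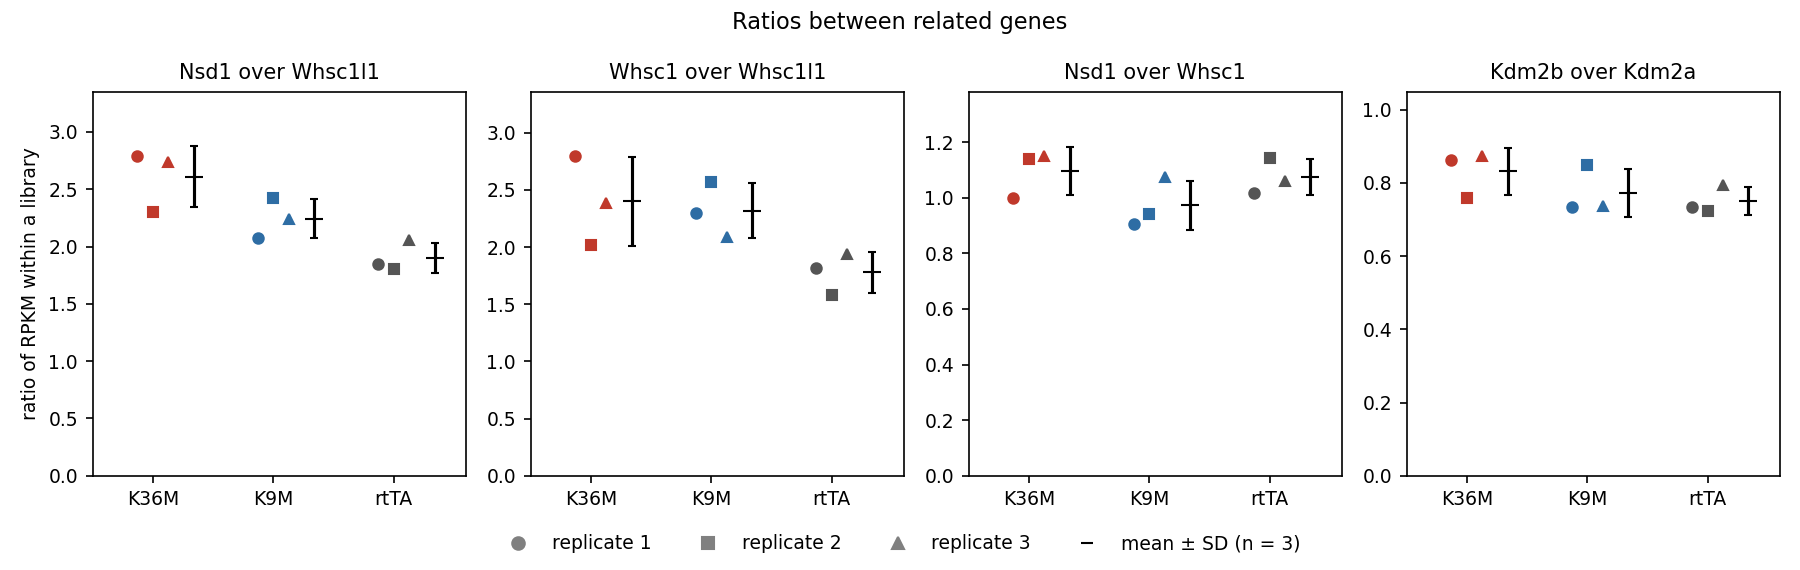
Ratio of RPKM between related genes within each library, by group, with the mean ± SD (n = 3). Nsd1 over Whsc1l1 and Whsc1 over Whsc1l1 are above 2 in all 6 mutant libraries and 2.05 or lower in the 3 rtTA libraries, without overlap, and the other ratios overlap.

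Beyond the 10, 46 genes of the same pathway were examined, of which 44 were tested: other enzymes named for H3K36, other readers and partner proteins. In K36M against rtTA, 1 of the 44 was called (2.27%, against 1.50% of all genes), in K9M against rtTA none (against 0.116% of all genes) and in K36M against K9M 2 (4.55%, against 2.52% of all genes). An unadjusted limma p under 0.05 was held by 10, 4 and 7 of the 44 in the same order. Of all genes, 19.1%, 7.11% and 18.8% had one. Of the other methyltransferases, 3 of 4 were tested (Setd3, Setd5 and Smyd2) and none was called in any comparison, with a median log2 fold change of -0.01 in K36M against rtTA and 0.04 in K9M against rtTA. Of the other demethylases, such as Kdm4a and Kdm4b, which act on trimethylated H3K36, 5 of 6 were tested and none was called, with medians of -0.21 in K36M against rtTA and -0.13 in K9M against rtTA. The 18 other readers, among them the DNA methyltransferase Dnmt3a with its PWWP domain, had medians of 0.06 and -0.04 in the same comparisons, and none was called. The 18 partners had medians of 0.11 and -0.03.

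Rnf2, the catalytic subunit of Polycomb complex 1 and a partner of Kdm2b, was the partner called in K36M against rtTA. It had 18.5, 19.7 and 20.5 RPKM in K36M, 28.1, 26.6 and 24.6 RPKM in K9M, and 29.7, 28.0 and 27.1 RPKM in rtTA. Every K36M library was below every other library. Its log2 fold change was -0.52 (SE 0.091, limma adjusted p = 0.0319) in K36M against rtTA and -0.42 (SE 0.091, limma adjusted p = 0.0485) in K36M against K9M. The call against rtTA held without K36M replicate 2 but was lost without any of the other 8 libraries, where the limma adjusted p ran from 0.0571 to 0.130 and the log2 fold change from -0.48 to -0.55. Against K9M, of the 9 fits without a single library, only that without rtTA replicate 1 kept the call (limma adjusted p = 0.048). In a fit of the compared groups alone both Rnf2 calls were lost (limma adjusted p = 0.126 against rtTA and 0.0696 against K9M), and that against K9M also without a filter (0.0622), with median centring (0.0514) and without a trend (0.0671).

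Hdac1, a deacetylase found with Morf4l1 in Sin3 complexes, had 58.6, 54.0 and 57.4 RPKM in K36M, 35.2, 23.0 and 35.4 RPKM in K9M, and 46.4, 46.2 and 32.8 RPKM in rtTA. Its log2 fold change in K36M against K9M was 0.88 (SE 0.19, limma adjusted p = 0.0478), a call that held without rtTA replicate 1 or 3 and was lost without any of the other 7 libraries. It was also lost without a filter (limma adjusted p = 0.102), with quantile normalization (0.0528), with median centring (0.0582), without a trend (0.059) and in a fit of the compared groups alone (0.0517). The processed pseudogene Gm10093 matches Hdac1 at 99.4% identity over 1444 bases. It had 1.81, 1.01 and 0.492 RPKM in K36M, 18.3, 39.8 and 17.9 RPKM in K9M, and 1.65, 1.02 and 15.1 RPKM in rtTA. The 4 libraries in which Gm10093 was high were the 4 in which Hdac1 was low, so a change of Hdac1 and an exchange of reads with its copy cannot be told apart.

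The 3 genes outside the set whose pattern over the 9 libraries was most like the mean of the 10 were Mgl2, Zmiz2 and Pcnt. Likeness was measured by the correlation with the mean of the standardised log2 values. Pearson's r was 0.98 for Mgl2, 0.98 for Zmiz2 and 0.97 for Pcnt, and Spearman's rho was 0.97, 0.97 and 0.95 in the same order. These are descriptions over libraries that also share the difference between long and short transcripts.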

How the data were processed

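RNA was sequenced from sorted LSK cells of 9 mice, 3 per group as the sample titles and the series design give them. The authors deposited RPKM values per gene for 37882 genes. CASAVA 1.7, STAR and mm10 are named in the submitters' processing notes. The labels give polyA RNA as the molecule and a total RNA kit for the libraries. Not given in the sources used here are the counting rule, its use of strand and the STAR version. Of the gene identifiers, 37607 matched GENCODE M21, the source of coordinates, lengths and the H3f3a sequence.

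The 10 genes, the lists of pathway and marker genes and the tests were chosen with earlier results of these data known. Values were analysed as log2(RPKM + 0.5), and fold changes on that scale understate those of low genes. limma 3.58.1 (R 4.3.3, eBayes with trend, 6 residual and 3.14 prior degrees of freedom) fitted the 3 group means to all 9 libraries for genes with at least 1 RPKM in at least 3 libraries, with Benjamini-Hochberg adjustment over 12926 genes. Of the low values, 50.6% to 52.2% were whole reads within 0.02 at the estimated depths (4.0% by chance), so depths are approximate and no count test was run. Copies of transcripts were sought with blastn 2.17.0 at 90% identity over 300 bases. Exact tests used scipy 1.17.1. Named were all 10 genes, called genes of the pathway lists (at most 4 per list) and the 3 genes most like the set.

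Whether replicate numbers pair the mice was judged from how same-numbered libraries deviate from their group means. The correlation was 0.369 to 0.414 between K36M and rtTA, above 0.1 in each pair, but 0.017 to 0.162 between K9M and rtTA and -0.17 to 0.074 between K36M and K9M. The rule for pairing, above 0.1 in each pair, was thus met in K36M against rtTA only. The main fit left the block out in all comparisons all the same. The block was an alternative, printed beside K36M against rtTA where it matters.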

Additional observations from a re-analysis of the deposited data

How the results depend on the processing

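Each of the 30 values of the 10 genes was recomputed under 22 other settings, 660 values in all. Of these, 631 kept direction and call, 2 were newly called (both Nsd1 in K36M against rtTA) and 27 changed sign. The replicate block called none of the 10. The length correction, alone or with the block, called 1 of the 10 in K36M against rtTA.

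The number of genes called moved more. In K36M against rtTA (194) it was 76 without a filter, 301 with the replicate block, 25 in a fit of those groups alone, 408 with the length correction, 424 with that and the block, 5 without the libraries numbered 1, and 10 to 402 when single libraries were left out: 10, 402 and 23 without K36M replicates 1, 2 and 3, 73, 106 and 83 without K9M replicates 1, 2 and 3, and 90, 51 and 26 without rtTA replicates 1, 2 and 3. In K9M against rtTA (15) it was 4 without a filter, 8 with quantile normalization, 8 with median centring, 62 with array weights, and 6 to 36 without single libraries. In K36M against K9M (326) it was 118 without a filter, 589 with array weights, 595 with the block, 563 with the length correction, 818 with both, 16 without the libraries numbered 1, and 15 to 509 without single libraries.

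Signs changed only for small log2 fold changes. In K36M against rtTA, Morf4l1 was -0.022 with quantile normalization and Kdm2a was -0.016 with array weights and -0.022 without the libraries numbered 1. Nsd1 in K9M against rtTA was -0.068 with array weights and -0.026 without the libraries numbered 1. In K36M against K9M, Ash1l was 0.031 with array weights and 0.086 without the libraries numbered 1, where Setmar was 0.15. Leaving out single libraries gave, in K36M against rtTA, -0.34 to 0.050 for Ash1l, -0.085 to 0.12 for Kdm2a, -0.095 to 0.30 for Setd2 and -0.19 to 0.088 for Whsc1l1. For K9M against rtTA it gave -0.34 to 0.036 for Ash1l, -0.19 to 0.019 for Kdm2b and -0.13 to 0.14 for Nsd1. In K36M against K9M it gave -0.11 to 0.15 for Ash1l, -0.091 to 0.014 for Psip1 and -0.24 to 0.022 for Setmar. Without the libraries numbered 1, the calls of Rnf2 (limma adjusted p = 0.328 against rtTA and 0.272 against K9M), Hdac1 (0.233), Ltf (0.277) and Hbb-bt (0.274 against rtTA) were lost, and without a filter those of Ltf (0.0925) and Hbb-bt (0.0703 against rtTA). Ltf was lost in a fit of the compared groups alone (0.121) and Hbb-bt with array weights (0.0549 against rtTA). The cause of these changes was not tested.

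With 3 mice per group, precision is limited by the spread between libraries: as deposited, all 95% intervals of the 10 genes are wider than the group differences. Setmar rests on the fewest reads.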
